A study of Mus musculus with 6 samples.

Results

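The comparison described here asked what a NANOS2 protein lacking its first 10 residues changed in the RNA of a fetal testis that had no NANOS2 of its own. Its members were chosen by genotype: the 2 Nanos2-/-_Tg+ arrays and the 2 Nanos2-/- arrays, 4 of the 6 arrays of the series. All samples were whole male gonads at E14.5 on a mixed ICR and N2 background, each hybridized in 1 colour to an Agilent whole mouse genome array. Nanos2-/- gonads carried a null allele in which lacZ replaced Nanos2, and Nanos2-/-_Tg+ gonads carried the same null allele plus the transgene 3×FLAG-Nanos2-ΔN10 under the upstream region of Nanos2, in animals of 1 transgenic line. The 2 Nanos2+/- arrays, from heterozygotes with 1 working allele, entered no test and are given only as a reference level. The 4 arrays compared lay on 1 slide and the Nanos2+/- arrays on another. The labels do not say whether a sample was 1 animal or a pool, so that p-values measure the spread between these samples, which may be technical.

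NANOS2 is an RNA-binding protein made by male germ cells in the fetal testis, and it is needed for the male germ cell programme and for the suppression of meiosis. It binds target RNAs through a partner and brings them to the CCR4-NOT complex, an assembly of deadenylases that shortens poly(A) tails. The first residues of the protein are the ones that contact CCR4-NOT, and ΔN10 removes them while leaving the zinc fingers. Without NANOS2, male germ cells are known to enter meiosis after *Stra8* is turned on and then to die.

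Of 41174 probes on the array, 25344 were well above background on all 4 arrays and were tested, and 17771 of these were matched to 12572 named genes. Levels are log2 of the signal scaled to a common median, and a difference is the mean of Nanos2-/-_Tg+ minus the mean of Nanos2-/-, each over 2 arrays. The arrays had median signals of 82.3 to 96.6, and 64.1 to 66.7% of probes were well above background. Levels on the 2 Nanos2-/- arrays correlated across probes at 0.993, those on the 2 Nanos2-/-_Tg+ arrays at 0.992 and the means of the genotypes at 0.997, where probes are not independent replicates. Nanos2-/- replicate 2 stood apart by low signals of some neutrophil genes, which are described with their values. With 2 against 2 arrays an exact permutation test cannot go below p = 0.333.

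The region next to the gene is shown because the transgene, the RNA with the largest bound on these arrays, carries the upstream sequence of *Nanos2*. The RefSeq table of GRCm38.p6 gives the 250 bases before the start of *Nanos2* at chr7:18987274-18987523 on the plus strand, with 50.8% G and C.

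Nanos2 promoter: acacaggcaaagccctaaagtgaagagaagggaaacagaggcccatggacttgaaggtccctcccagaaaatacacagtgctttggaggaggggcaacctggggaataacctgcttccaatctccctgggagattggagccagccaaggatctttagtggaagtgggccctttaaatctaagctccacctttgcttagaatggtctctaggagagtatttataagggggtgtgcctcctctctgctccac

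*Nanos2* RNA was not detected above background in Nanos2-/- and was abundant with the transgene. Its probe stood at the floor of 2.32 on both Nanos2-/- arrays, not well above background, and at 13.30 and 14.26 on the Nanos2-/-_Tg+ arrays. On the Nanos2+/- arrays it read 9.43 and 10.79, below both transgenic arrays. The transgenic level was at least 1139-fold higher than Nanos2-/- (adjusted p = 0.0034, limma, over a wider set of 26355 probes that had only to be well above background on both arrays of 1 genotype or the other). The bound sets the transgenic mean against the lowest signal well above background on each Nanos2-/- array. Both Nanos2-/- values were set to the floor, so the p-value takes no measured spread from that genotype. With normexp the measured difference fell from 11.46 on the floored log2 scale to 7.80. The adjusted p was 0.0736 with the replicate number as a block, 0.348 with a floor of 20 and 0.464 without the filter, which all left the direction as it was. *Nanos3*, which acts earlier in germ cells, read 10.71 and 11.12 in Nanos2-/- and 11.28 and 11.02 with the transgene, a difference of 0.23. The 2 tested probes of *Nanos1* differed by -0.01 and 0.21.

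Among the 25344 probes well above background on all 4 arrays, none was called. limma found 0 of 25344 probes (0%) past the limits of an adjusted p (Benjamini-Hochberg) below 0.05 and a 2-fold difference, and the lowest adjusted p was 0.0582. At an unadjusted limma p below 0.05 with the same fold limit there were 60 probes, 34 higher (0.134% of those tested) and 26 lower (0.103%) with the transgene. Under normexp background correction, which subtracts a modelled background from the raw signal, 13 probes passed those limits and 46.2% of them were higher, against 56.7% of the 60. The share of higher probes also moved with 1 array left out, to 51.0% without Nanos2-/- replicate 1, 31.5% without Nanos2-/- replicate 2, 35.8% without Nanos2-/-_Tg+ replicate 1 and 65.2% without Nanos2-/-_Tg+ replicate 2, so the balance of directions rested on single arrays. The methods' t-test, at an unadjusted p below 0.05 and the same fold limit, listed 13 probes (0.0513%), 7 higher and 6 lower, all among the 60, and 0 after Benjamini-Hochberg adjustment, where the lowest value was 0.958. At an unadjusted limma p below 0.05 with no fold limit there were 882 of 25344 probes, 442 higher and 440 lower. That share is smaller than the limit of 0.05 itself, so the count gives no sign of an excess.

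Single arrays differed by similar amounts within and between genotypes. A transgenic array differed from a null array by at least 2-fold for 269 to 641 probes over the 4 pairs of arrays, with a median size of 0.14 to 0.22. The 2 Nanos2-/- arrays differed from each other by at least 2-fold for 378 of the same probes, and the 2 Nanos2-/-_Tg+ arrays for 498, with median sizes of 0.19 and 0.18. A mean difference of at least 2-fold was seen for 102 probes, 58 higher and 44 lower. Means of 2 arrays vary less than single arrays, so this count is not set against those. The median size of the difference between the means was 0.12, and 95.4% of probes lay within 0.5, with a median SE of 0.167. Among named genes, each by its brightest probe, 63.0% read higher with the transgene and the median difference was 0.05, a shift that scaling to the 75th percentile moved towards 0 (from 0.03 to 0.0045 over all probes).

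**Figure D1:**
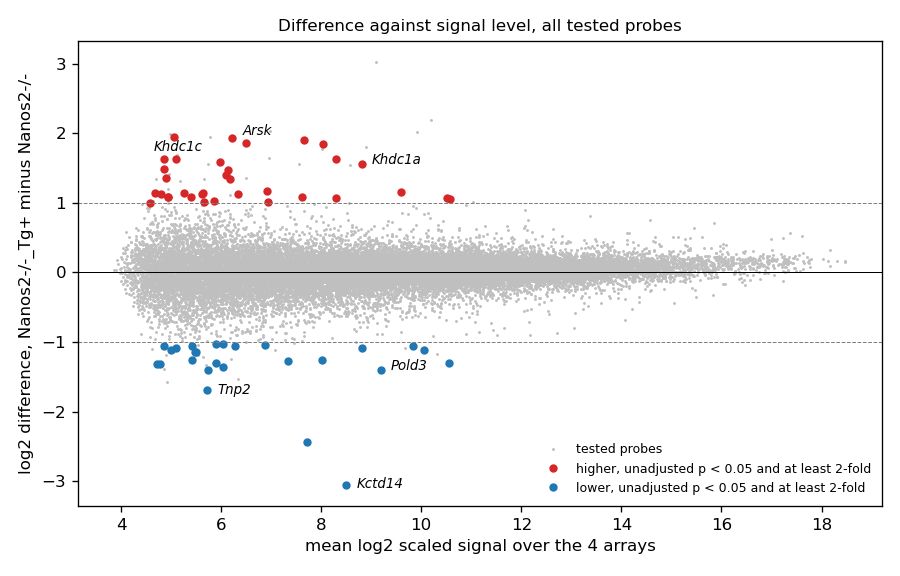
Difference between Nanos2-/-_Tg+ and Nanos2-/- (log2, vertical axis) against the mean log2 scaled signal of the 4 arrays, with 1 point for each of the 25344 tested probes. Red and blue points are the 34 higher and 26 lower probes at an unadjusted limma p below 0.05 with at least 2-fold (dashed lines), most of them at the dim end; *Kctd14* stands lowest at -3.05.

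*Kctd14*, a member of the KCTD family of BTB domain proteins, had the strongest single difference among probes measured in both genotypes. Its levels were 10.14 and 9.91 in Nanos2-/- and 7.09 and 6.86 with the transgene, and the Nanos2+/- arrays read 9.47 and 10.19. Both transgenic arrays therefore lay far below the other 4, and the replicates of each genotype lay close together. The difference was -3.05 (SE 0.169, 95% interval -3.47 to -2.64), an 8.31-fold lower signal in Nanos2-/-_Tg+, with an adjusted limma p of 0.0582. The adjusted p ranged from 0.0016 to 0.543 over the alternatives while the difference kept between -3.17 and -2.66. Without 1 array it was 0.0316 (Nanos2-/- replicate 1), 0.165 (Nanos2-/- replicate 2), 0.0016 (Nanos2-/-_Tg+ replicate 1) and 0.0059 (Nanos2-/-_Tg+ replicate 2). The gene was measured by 1 probe. None of the 13 other KCTD genes tested stood near it: their differences ran from -0.19 for *Kctd3* to 0.29 for *Kctd12*, and the median over all 14 was 0.05.

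*Khdc1a* and *Khdc1c* are neighbouring paralogs that encode KH domain proteins of the oocyte and early embryo. They had the lowest limma p-values among the 15 named genes with the largest positive differences past the unadjusted limits. *Khdc1a* read 8.16 and 7.90 in Nanos2-/- and 9.71 and 9.45 with the transgene, a difference of 1.55 (SE 0.175, 2.93-fold, adjusted p = 0.836, limma). *Khdc1c* read 4.38 and 4.19 in Nanos2-/- and 5.80 and 6.02 with the transgene, a difference of 1.62 (SE 0.163, 3.08-fold, adjusted p = 0.585, limma). Neither pair of arrays overlapped, and both genes also passed the methods' t-test at its unadjusted limit. The Nanos2+/- arrays lay between the genotypes, at 9.37 and 8.79 for *Khdc1a* and at 5.12 and 5.40 for *Khdc1c*. Because paralogs can share signal on an array, the 2 probes are not independent.

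The other named genes past the unadjusted limits on the higher side were mostly dim and have known roles in separate processes. *Spag16*, a part of the sperm tail axoneme, read 3.96 and 4.15 in Nanos2-/- and 6.46 and 4.89 with the transgene. *Spata20*, a testis thioredoxin-like protein, read 5.48 and 4.90 against 6.37 and 7.16. *Cartpt*, a neuropeptide precursor, read 5.79 and 5.02 against 7.48 and 6.12. In each the transgenic arrays lay above both null arrays but were well apart from each other. *Cd300lg*, an endothelial receptor, was tighter, at 4.35 and 4.13 against 5.32 and 5.43, with a difference of 1.13 (SE 0.158). The remaining genes among the 15 with the largest positive differences were *Arsk* (1.93), *Gm5622* (1.86), *Sfn* (1.47), *Csta2* (1.35), *Ppbp* (1.17), *Zfhx3* (1.14), *Fbxo44* (1.13), *Chd1* (1.12) and *Zfp933* (1.08), all with an adjusted limma p of 1.00.

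Only 10 named genes passed the unadjusted limits on the lower side. Below *Kctd14* in size came *Tnp2*, a transition protein that packs DNA in spermatids, at 7.57 and 5.56 in Nanos2-/- and 5.02 and 4.73 with the transgene. *Timmdc1*, a complex I assembly factor, read 9.57 and 10.23 against 9.09 and 7.91. These differences of -1.69 and -1.40 came with replicates that were far apart. *Ptpn22*, a tyrosine phosphatase of blood cells, was tighter at 5.31 and 5.57 against 4.11 and 4.14, a difference of -1.31 (SE 0.159, adjusted p = 0.886, limma). *Ly6g6e*, a surface protein of the LY6 family, read 10.71 and 10.51 against 9.73 and 9.26, with a difference of -1.12. *Nlrp14*, a germ cell member of the NLR family, read 9.19 and 8.09 against 7.11 and 7.66, with a difference of -1.25. *Nudt6* (-1.31), *Pla2g10* (-1.27), *Pold3* (-1.05) and *Numa1* (-1.04) completed the 10. Of these, *Kctd14*, *Nlrp14*, *Pold3* and *Numa1* are on chromosome 7, which also holds *Nanos2* and has 1019 of the 12572 tested genes. The other probes of *Pold3* and *Numa1* had the opposite sign, and the median difference of the chromosome 7 genes was 0.03. *Tnp2*, *Timmdc1* and *Pla2g10* are on chromosome 16, with 389 tested genes, and the others on chromosomes 3 and 17. Whether position has a part in these differences was not tested.

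**Figure D2:**
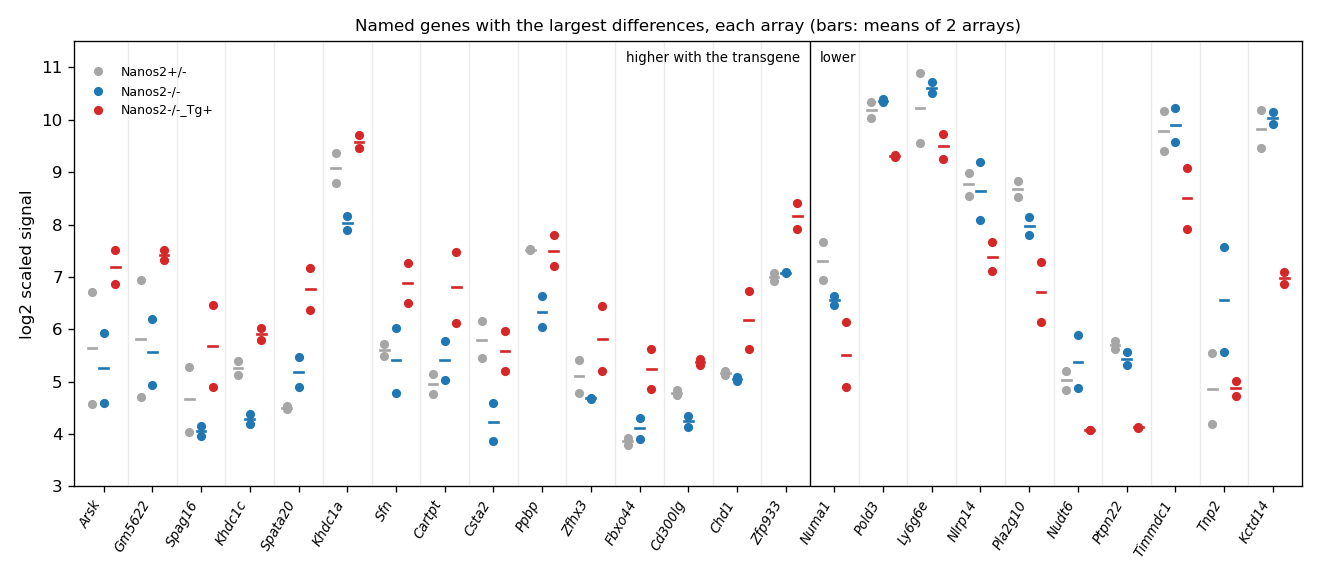
Log2 scaled signal of the 15 named genes with the largest positive and the 10 with the largest negative difference, on each of the 6 arrays. Points are arrays and short bars the means of 2, grey for Nanos2+/-, blue for Nanos2-/- and red for Nanos2-/-_Tg+; *Kctd14* at the right and *Khdc1a* and *Khdc1c* keep each genotype's arrays close together, while *Spag16*, *Tnp2* and others do not.

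Where a gene had more than 1 tested probe, the other probes did not carry the difference. Of the 30 named genes past the unadjusted limits, 21 had a single tested probe and 9 had others, 13 further probes in all. None of these 9 had another probe past the limits, and the differences of the 13 ran from -0.48 to 0.32. For 3 genes the others had the opposite sign. The brighter probe of *Arsk*, a lysosomal sulfatase, differed by -0.48 against 1.93 for the dim one. *Pold3*, a subunit of DNA polymerase delta, had 1 probe at 10.39 and 10.33 against 9.29 and 9.32, a difference of -1.05, but its other 2 probes differed by 0.19 and 0.25. The second probe of *Numa1*, which encodes a spindle pole protein, differed by 0.10 against -1.04. The genes with a single probe, among them *Kctd14*, *Khdc1a* and *Khdc1c*, have no such check.

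**Figure D3:**
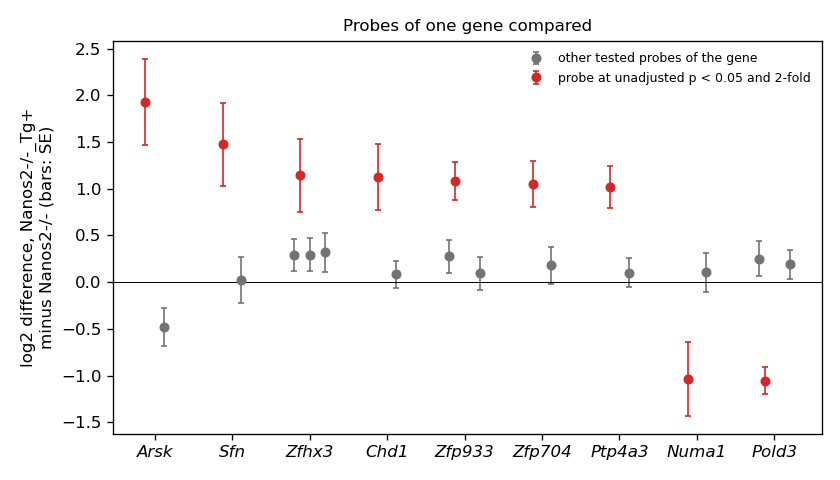
Difference between Nanos2-/-_Tg+ and Nanos2-/- (log2, with SE) for each tested probe of the 9 genes that had 1 probe past the unadjusted limits (red) and other tested probes (grey). The 13 grey points lie between -0.48 and 0.32, and those of *Arsk*, *Numa1* and *Pold3* are on the other side of 0 from the red ones.

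The probes past the unadjusted limits were dim. Their median level was 6.01 against 9.18 for all tested probes, and 42 of the 60 were below 7, where 26.0% of all tested probes lay. The other 30 of the 60 had no gene name here. The steadiest of these was A_52_P493509, at 7.47 and 7.48 in Nanos2-/- and 9.06 and 9.16 with the transgene, a difference of 1.63 with an adjusted limma p of 0.418. A_51_P335104 had the largest negative difference of the unnamed probes, at 9.14 and 8.72 against 7.57 and 5.40.

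Some RNAs were well above background in 1 of the 2 genotypes. In the wider set, 59 probes were well above background on both Nanos2-/-_Tg+ arrays and on neither Nanos2-/- array, and 159 the other way round. The fold reached a bound of 2 for 24 of the first and 5 of the second. limma called 4 probes in this set: *Nanos2*, *Kctd14* (adjusted p = 0.0351) and the unnamed probes A_51_P162805 and A_52_P922974 (both 0.0351). For 3 of the 4, all but *Kctd14*, both Nanos2-/- values were set to the floor and the filter was passed through the transgenic arrays alone. Their p-values thus take no measured spread from Nanos2-/-. The count rested on the processing: it was 1 with scaling to the 75th percentile or quantile normalization, 2 with normexp, and 0 with a floor of 20 or the replicate block. Without 1 array it was 10 (Nanos2-/- replicate 1), 1 (Nanos2-/- replicate 2), 48 (Nanos2-/-_Tg+ replicate 1) and 26 (Nanos2-/-_Tg+ replicate 2). A_51_P162805 was at the floor on all Nanos2+/- and Nanos2-/- arrays and at 6.23 and 5.81 with the transgene, at least 5.26-fold higher, and A_52_P922974 was at least 2.42-fold higher in the same pattern. Since both were also at the floor in Nanos2+/-, their signal was seen in Nanos2-/-_Tg+ alone of the 3 genotypes. Among named genes, *Rph3a*, a synaptic vesicle protein, was at least 5.86-fold higher with the transgene and was also measured in Nanos2+/-. *Agtrap*, which binds the angiotensin receptor, was at least 3.38-fold higher, and *Ppp1r3a*, a glycogen-targeting phosphatase subunit, at least 3.15-fold. *Gzmd* (at least 2.87-fold), *Crybb2* (2.55), *Syvn1* (2.29), *Ms4a19* (2.11), *Mup1* (2.06) and *Foxb2* (2.05) followed, all without a call. The only named gene with such a bound on the lower side was *Oxct2a*, a ketone body enzyme of germ cells, at least 3.74-fold lower.

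4 RNAs that NANOS2 is known to bind read higher with the transgene by a median of 0.38, the highest of the 29 list medians, and none was called. The list is not complete, and other RNAs bound by NANOS2 are not analysed here. *Stra8*, which starts meiosis, read 12.47 and 13.45 in Nanos2-/- and 14.49 and 13.05 with the transgene. The arrays overlapped, and the difference of 0.81 had a 95% interval of -0.49 to 2.11 and ran from 0.09 without Nanos2-/-_Tg+ replicate 1 to 1.53 without replicate 2. *Taf7l*, a germ cell transcription cofactor, read 12.36 and 12.59 against 13.17 and 12.38, with a difference of 0.30 and an interval of -0.38 to 0.98. *Sycp3*, a part of the synaptonemal complex, read 10.26 and 10.81 against 11.15 and 10.86, a difference of 0.47 (interval -0.10 to 1.03) with both transgenic arrays above both null arrays. *Dazl*, an RNA-binding protein of germ cells, read 13.47 and 13.79 against 13.68 and 13.79, a difference of 0.11 (interval -0.32 to 0.53), and its second probe differed by -0.06. All 4 read higher by their brightest probe, 1 without overlap, where 23.0% of all 12572 genes were higher without overlap and 7.65% lower. These shares are the background for every such count of genes, and they rest on the scaling to the median. Over probes, 5120 were higher and 2717 lower without overlap, but 4521 and 3758 with the 75th percentile, 4327 and 3942 with quantile normalization and 3900 and 3689 with normexp. In these whole gonads a difference in the number of germ cells and one in RNA per germ cell cannot be told apart. For *Stra8* the Nanos2+/- arrays stood at 10.20 and 11.49, below all 4 arrays compared.

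**Figure D4:**
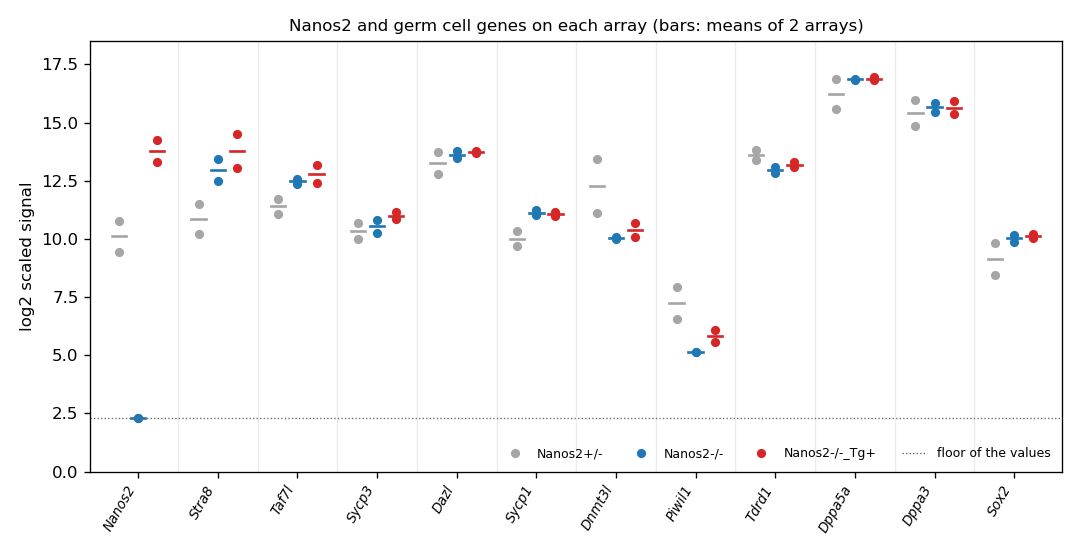
Log2 scaled signal of *Nanos2* and 11 germ cell genes on each array (points), with the mean of each genotype (bars), grey for Nanos2+/-, blue for Nanos2-/- and red for Nanos2-/-_Tg+. *Nanos2* goes from the floor (dotted line, 2.32) to 13.30 and 14.26 with the transgene, while the differences of the other 11 run from -0.05 to 0.81.

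Meiotic genes as a group had a slightly positive median. Of 30 genes in the list, 16 were tested, 12 read higher and 4 lower, and the median difference was 0.20 against 0.05 for all genes. Leaving out Nanos2-/-_Tg+ replicate 1 took the median to 0.0049, and leaving out replicate 2 to 0.40. *Sycp1*, another synaptonemal protein, read 11.02 and 11.25 against 11.18 and 10.99, a difference of -0.05 (interval -0.45 to 0.35). *Rec8*, a meiotic cohesin, read 11.25 and 12.22 against 12.42 and 12.31, a difference of 0.64. *Stag3*, its cohesin partner, differed by -0.36, *Spo11*, which makes meiotic breaks, by -0.30, and *Msh5*, a crossover factor, by -0.27. The dimmer probe of *Spo11* differed by -0.47 without overlap (unadjusted p = 0.024, limma). Those of *Msh5* and *Rec8* differed by 0.05 and 0.54. Without overlap, 5 were higher and 2 lower, beside 23.0% and 7.65% of all genes. By the brightest probe, 0 passed an unadjusted p below 0.05 in either direction. Of all genes, 1.69% did so on the higher side and 0.644% on the lower.

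Genes of the male germ cell programme stood at or slightly above the Nanos2-/- level. *Dnmt3l*, a cofactor of de novo DNA methylation, read 10.10 and 10.001 in Nanos2-/- and 10.68 and 10.07 with the transgene, a difference of 0.32 (interval -0.24 to 0.88), with Nanos2+/- at 13.42 and 11.13. *Piwil1*, a piRNA-binding protein, read 5.13 and 5.14 against 5.59 and 6.07, a difference of 0.70 (interval 0.21 to 1.19, adjusted p = 1.00, limma), with Nanos2+/- at 7.93 and 6.57. *Tdrd1*, a scaffold of the piRNA pathway, read 12.82 and 13.09 against 13.32 and 13.07, a difference of 0.25, while its dimmer probe differed by -0.24. For *Dnmt3l*, *Piwil1* and the brighter probe of *Tdrd1*, both transgenic arrays were below both Nanos2+/- arrays, which read 13.81 and 13.41 for *Tdrd1*.

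By the brightest probe, all 12 tested genes of the 21 in the piRNA list read higher, where 63.0% of all genes did. Of the 12, 5 were without overlap (23.0% of all genes), and the median of 0.19 ran from 0.08 to 0.35 when 1 array was left out. *Mael*, which is needed to silence transposons, read 14.06 and 14.21 against 14.69 and 14.37, a difference of 0.39. *Mov10l1*, the helicase that starts piRNA processing, differed by 0.36, and the smallest difference was 0.01 for *Tdrd12*. Dimmer probes went the other way for *Tdrd1* (-0.24, without overlap), *Tdrd12* (-0.14) and *Fkbp6* (-0.10), while that of *Mov10l1* differed by 0.10. *Piwil1* was the only member at an unadjusted p below 0.05, and no member was called. The DNA methylation list had 10 of 14 tested genes higher, 4 without overlap, with a median of 0.09. *Dnmt3a*, the de novo methyltransferase, differed by 0.37 by its brightest probe and by -0.02 and 0.20 by its others. *Zfp57*, which protects imprints, differed by -0.14.

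Genes of pluripotency and of primordial germ cells showed no common direction. Of 21 tested genes of 24, 9 read higher and 12 lower, and the median was -0.01. Without overlap, 3 were higher and 3 lower, beside 23.0% and 7.65% of all genes. *Dppa5a*, an RNA-binding protein of early germ cells, read 16.84 and 16.87 against 16.96 and 16.82, and its difference of 0.03 turned to -0.10 with quantile normalization and -0.058 with normexp. *Dppa3*, a chromatin protein of the early germ line, read 15.46 and 15.85 against 15.35 and 15.94, a difference of -0.01. *Sox2*, a pluripotency factor, read 9.87 and 10.19 against 10.04 and 10.21, a difference of 0.10. The members with the largest negative differences, *Esrrb* (-0.67), *Nanog* (-0.61) and *Tcl1* (-0.48), overlapped between genotypes. *Sall4* had the largest positive one at 0.36, while its dimmer probe differed by -0.04. General germ cell genes (18 tested of 26) had 12 higher and 6 lower with a median of 0.12, which was -0.04 without Nanos2-/- replicate 1.

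Over these 6 lists together, 78 different germ line genes were tested. Of these, 52 read higher and 26 lower, where 63.0% of all genes read higher. The median was 0.11, and 18 were higher and 5 lower without overlap, beside 23.0% and 7.65% of all genes. Of the 78, each by its brightest probe, 1 had an unadjusted limma p below 0.05 and 0 differed by 2-fold. The differences ran from -0.67 to 0.81.

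Genes of the deadenylation machinery were close to their Nanos2-/- levels. Of 21 genes of CCR4-NOT and other deadenylases, 20 were tested, 11 higher and 9 lower, with a median of 0.06. Without overlap, 4 were higher and 1 lower, beside 23.0% and 7.65% of all genes. *Cnot8*, a catalytic subunit, differed by -0.22 and *Cnot9*, a structural subunit, by -0.14. *Tob2*, an adaptor to the complex, differed by 0.37 by its brighter probe and by -0.28 by its dimmer one. P-body and decapping genes (25 tested of 29) had 18 higher and 7 lower with a median of 0.08. *Ddx6*, the P-body helicase, differed by 0.19, *Lsm5*, of the decapping-linked LSM ring, by 0.35, and *Ago2*, the slicing Argonaute, by -0.32.

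Lists of signals that act on fetal germ cells had small median differences. Retinoic acid genes (18 tested of 19) had 14 higher and 4 lower, 7 and 1 without overlap (23.0% and 7.65% of all genes), with a median of 0.12. *Cyp26a1* had the largest difference of the list, 0.66, at 5.18 and 5.23 against 6.86 and 4.86, with overlap. *Cyp26b1*, which clears retinoic acid in the fetal testis, read 13.58 and 13.70 against 13.43 and 13.63, and *Rdh10*, which makes its precursor, read 7.62 and 7.95 against 8.10 and 8.44, with a difference of 0.49 (interval 0.01 to 0.97, adjusted p = 1.00, limma). Nodal and activin genes (15 tested of 18) had 6 higher and 9 lower, with a median of -0.06. *Lefty2*, a NODAL antagonist and target, read 10.10 and 9.99 against 9.46 and 9.84, a difference of -0.39. *Fst*, which binds activin, differed by -0.37.

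Markers of the somatic cells of the testis were measured in all samples, with list medians from -0.05 to 0.19. Sertoli markers (21 tested of 22) had 20 higher and 1 lower, 11 higher without overlap against 23.0% of all genes, with a median of 0.19. *Cldn11*, a tight junction protein of these cells, read 10.77 and 10.91 against 11.22 and 11.29, and *Fshr*, the follicle-stimulating hormone receptor, 5.88 and 5.51 against 6.45 and 6.03. Their differences of 0.41 and 0.54 had 95% intervals of 0.05 to 0.78 and 0.01 to 1.08, and both genes had an adjusted p = 1.00 in limma. *Hsd17b1* had the largest difference of the list, 0.56, with overlap between genotypes. The summed scaled signal of the Sertoli list (linear) was 238216 and 278623 in Nanos2-/- and 269436 and 289286 with the transgene. Fetal Leydig markers (18 tested of 19) had 6 higher and 12 lower, with a median of -0.05. Without overlap, 0 were higher and 3 lower, beside 23.0% and 7.65% of all genes. *Cyp17a1*, an androgen synthesis enzyme, differed by -0.13. The largest differences of the list were 0.76 for *Ren1*, whose other probe differed by 0.97, and -0.59 for *Lhcgr*, all with overlap. *Gli1*, a hedgehog target, read 9.57 and 9.73 against 9.44 and 9.18, and the summed signal of the Leydig list was 243521 and 213819 against 251982 and 219278. Ovarian somatic genes (10 tested of 14) had a median of 0.09, and *Foxl2*, the defining granulosa factor, was well above background on none of the 4 arrays. The part of these cell types in the germ cell values was not tested.

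**Figure D5:**
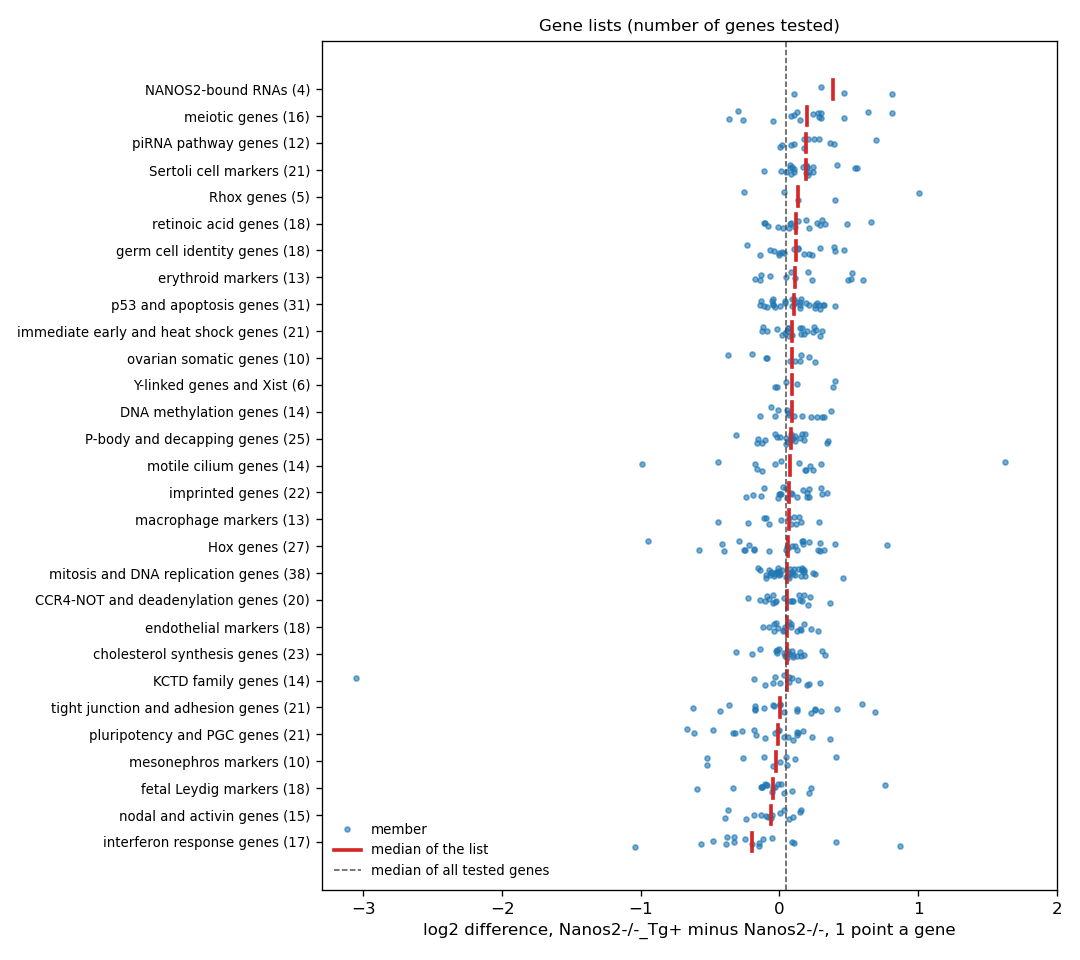
Difference between Nanos2-/-_Tg+ and Nanos2-/- (log2) for the tested members of 29 gene lists, 1 point a gene by its brightest probe, with the number tested in brackets. Red bars are list medians, from -0.20 (interferon response) to 0.38 (RNAs bound by NANOS2), and the dashed line is the median of all 12572 genes, 0.05; *Kctd14* is the point at -3.05.

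Several red blood cell genes read higher on both transgenic arrays. Of 20 erythroid markers 13 were tested, 9 higher and 4 lower, 5 higher without overlap (23.0% of all genes), and 4 of the 13 were higher at an unadjusted limma p below 0.05 (1.69% of all genes). *Hbb-bt*, an adult beta globin, read 17.46 and 17.25 in Nanos2-/- and 17.89 and 17.87 with the transgene, a difference of 0.53, and its 3 other probes differed by 0.57 to 0.70. Globin paralogs share sequence, so these probes may read the same RNAs. *Hba-a1*, an alpha globin, differed by 0.50, *Alas2*, the first enzyme of heme synthesis in red cells, by 0.60 and *Slc4a1*, the anion exchanger of the red cell membrane, by 0.52. The adjusted limma p was 1.00 for each. *Epor*, the erythropoietin receptor, *Klf1*, the erythroid transcription factor, and *Car1*, a carbonic anhydrase, were on the other side at -0.13, -0.14 and -0.18. The summed signal of the list was 340379 and 301528 in Nanos2-/- and 450059 and 457578 with the transgene, with 367418 and 372688 in Nanos2+/-. Its median of 0.11 was 0.0098 without Nanos2-/-_Tg+ replicate 2 and 0.45 without replicate 1.

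A list of platelet and megakaryocyte genes, added after the values had been seen and so given with no test, lay on the same side. Of 16 genes 10 were tested, 9 higher and 1 lower, 5 higher without overlap (23.0% of all genes), with a median of 0.47. Nanos2-/- replicate 2 was the lowest of the 4 arrays for 7 of the 10. *Pf4*, a platelet chemokine, read 9.41 and 9.42 against 9.79 and 10.03, *Vwf*, the von Willebrand factor of platelets and endothelium, 11.71 and 11.44 against 12.24 and 11.83, and *Ppbp* 6.63 and 6.04 against 7.20 and 7.80. The Nanos2+/- arrays also stood above Nanos2-/- for these 3, at 9.71 and 9.90, 12.90 and 11.92, and 7.53 and 7.51. *Ppbp*, one of the 15 genes with the largest positive differences, thus read higher alongside other blood cell markers, and their part in its difference was not tested.

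Nanos2-/- replicate 2 stood apart in some genes of neutrophils, the white cells that lead early inflammation. *S100a9*, the calgranulin of these cells, read 11.45 and 6.35 in Nanos2-/- and 11.16 and 10.68 with the transgene, and *S100a8*, its partner, 8.92 and 4.66 against 8.50 and 8.20. *Csta1* and *Cstdc6*, stefin protease inhibitors, followed with 10.27 and 5.71 against 9.90 and 9.68, and 9.92 and 5.70 against 9.42 and 9.27. In all 4 genes only Nanos2-/- replicate 2 was low, and the Nanos2+/- arrays (10.43 and 9.92 for *S100a9*) stood with the other 3. Their differences of 1.54 to 2.02 were therefore set by 1 array. *Csta2*, a stefin among the 15 largest positive differences, read 4.59 and 3.87 against 5.97 and 5.20. *Prim2*, a DNA primase subunit with the largest positive mean difference of any tested probe (3.02), was also low on that array, at 10.13 and 5.03 in Nanos2-/- and 9.95 and 11.25 with the transgene, and at 10.22 and 4.42 in Nanos2+/-. Of the 42 probes with a mean difference of at least 2-fold that did not pass the unadjusted limit, 23 overlapped between genotypes. These genes were chosen after their values were seen. Of a list of 22 neutrophil genes, also added then, 12 were tested, 8 higher and 4 lower, with a median of 0.16. Without overlap, 1 was higher, beside 23.0% of all genes. Nanos2-/- replicate 2 was the lowest of the 4 arrays for 8 of the 12. These include *S100a8*, *S100a9*, *Csta1*, *Cstdc6* and *Csta2*, already picked for their values, so the count is no separate evidence. *Mpo* was lowest there only narrowly, at 8.89 against 8.90 on Nanos2-/-_Tg+ replicate 1. *Mpo*, the granule myeloperoxidase, differed by -0.32, *Padi4* by -0.14, *Ctsg* by -0.055 and *Prtn3* by -0.037. *Cd177*, a neutrophil surface protein, and *Chil3*, a chitinase-like protein, read higher on that array than on Nanos2-/- replicate 1, at 5.27 against 4.89 and at 7.998 against 7.506.

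Other cells that a gonad sample could hold showed small differences. Macrophage markers (13 tested of 17) had a median of 0.07, with *Cx3cr1*, a chemokine receptor, at 6.54 and 6.45 against 6.04 and 6.07 and *Ptprc*, the pan-leukocyte marker, at 5.87 and 5.76 against 6.10 and 6.09. *Cx3cr1* was the only member at an unadjusted limma p below 0.05, with an adjusted p = 1.00. Endothelial markers (18 tested of 18) had 12 higher, 6 without overlap (23.0% of all genes), with a median of 0.06. *Cdh5*, the endothelial cadherin, differed by 0.28. Mesonephros markers (10 tested of 16) had 5 higher and 5 lower with a median of -0.02, and the defining *Pax2* was well above background on none of the 4 arrays. The Y-linked list gave 4 higher and 2 lower of 6 tested, and *Xist* was well above background on none of the 4, as in male tissue.

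Genes of stress, death and growth had medians near the 0.05 of all genes. The p53 and apoptosis list (31 tested of 33) had 22 higher and 9 lower, 12 and 2 without overlap (23.0% and 7.65% of all genes), with a median of 0.10. *Fas*, a death receptor, read 6.53 and 6.77 against 6.98 and 7.13, *Phlda3* and *Perp*, targets of p53, each differed by 0.32, and *Cdkn1a*, its classical target, by -0.11. Mitosis and replication genes (38 tested of 39) had 22 higher and 16 lower with a median of 0.06, *Ccnd2* having the largest difference at 0.46 with overlap. Immediate early and heat shock genes (21 tested of 23) had 17 higher, 6 without overlap, with a median of 0.09. No member of these 3 lists had an unadjusted p below 0.05.

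The interferon response list had the lowest median, -0.20, with 13 of 17 tested genes lower. *Oas2*, an antiviral synthetase, read 4.69 and 7.41 in Nanos2-/- and 5.10 and 4.93 with the transgene, and *Irf9*, a subunit of the interferon-activated factor, 9.28 and 9.99 against 9.35 and 8.78. Without Nanos2-/- replicate 2 the median was 0.26, so that the sign rested on that array. *Isg20*, an exonuclease, was the member furthest on the higher side, at 4.66 and 4.66 against 6.12 and 4.94.

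Some junction and cilium genes had small differences without overlap. *Cldn1*, a tight junction claudin, read 5.46 and 5.52 in Nanos2-/- and 6.29 and 6.07 with the transgene, and *Ocln*, occludin, 5.38 and 5.40 against 5.97 and 5.99. *Tjp3*, a junction scaffold, read 6.92 and 6.79 against 6.37 and 6.49. These were on both sides of 0, and the list of 21 tested of 26 had a median of 0.00 with 3 genes higher and 2 lower at an unadjusted limma p below 0.05, beside 1.69% and 0.644% of all genes. Their adjusted limma p-values were all 1.00. *Cfap52*, a protein of motile cilia, read 8.34 and 7.90 against 6.95 and 7.30, a difference of -0.99 (interval -1.52 to -0.46, adjusted p = 1.00, limma), with Nanos2+/- at 9.24 and 9.55. The median of the 14 tested cilium genes was 0.08, with *Spag16* at 1.62 on the other side.

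The medians of the remaining lists lay between 0.06 and 0.14, beside 0.05 for all genes. Cholesterol synthesis (23 tested of 24) and imprinted genes (22 of 30) had medians of 0.06 and 0.07. Without overlap, 7 and 9 genes were higher and 2 and 0 lower, beside 23.0% and 7.65% of all genes. The differences ran from -0.31 for *Stard4*, a sterol carrier, to 0.33 for *Hmgcs1*, a synthesis enzyme, and from -0.24 for *Phlda2* to 0.34 for *Dio3*. Hox genes (27 of 38) had a median of 0.07, with 3 higher and 7 lower without overlap (23.0% and 7.65% of all genes). *Hoxc10* read 5.83 and 7.46 against 5.61 and 5.79. *Rhox3a*, a homeobox gene of the reproductive X-linked cluster, read 6.03 and 6.83 against 7.89 and 6.98, a difference of 1.00 (interval 0.06 to 1.95), and the median of the 5 tested Rhox genes was 0.14. Over all 29 lists, 487 different genes were tested and 4 differed by at least 2-fold: *Kctd14*, *Spag16*, *Rhox3a* and *Oas2*.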

How the data were processed

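Total RNA of E14.5 male gonads had been hybridized to 1-colour Agilent arrays, 2 per genotype. The deposited scanner files, made by the authors with Agilent Feature Extraction 9.5 per the submitters' processing notes, hold background-subtracted intensity values, 1 per spot. Here the 1639 control spots and the outlier spots (54 to 79 on the 4 arrays) were left out, and the 50th percentiles of the arrays were set equal before a floor of 5, the log2 and the mean over spots of a probe. Probes well above background on all 4 arrays were fitted with limma 3.58.1 (R 4.3.3, the data.table package, 1.17.8) on those 4 arrays, with 2 residual and 3.86 prior degrees of freedom. The methods' t-test assumed equal variances. Counts and figures used Python 3.11.15, pandas 2.3.3 and matplotlib 3.10.9. No signal was saturated, and 2 arrays per genotype limit the precision. Gene names come from RefSeq through each probe's design accession, which matched 23374 probes. A gene stands for its brightest tested probe unless stated.

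Named are *Nanos2*, called probes, up to 15 genes a side with the largest differences past the unadjusted limits, 11 germ cell genes, bounds of at least 2-fold and up to 3 members a side of each list, of which some are not reported here. The samples, genes and lists were chosen with earlier results of these data known, and the platelet and neutrophil genes after their values were seen. The fit was tested on simulated data. Alternatives were other scalings, floors, filters and designs, and normexp on median signals.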

Additional observations from a re-analysis of the deposited data

How the results depend on the processing

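limma calls numbered 0 in the fit reported and 1 with normexp (offset 50), with all 6 arrays in the fit or with an intensity trend, 4 with the filter on either genotype, and 0 to 30 with 1 array left out (9 without Nanos2-/- replicate 1, 0 without Nanos2-/- replicate 2, 30 without Nanos2-/-_Tg+ replicate 1 and 11 without Nanos2-/-_Tg+ replicate 2). A lone array was assumed to vary like the other genotype. The list at unadjusted limits (60 probes) held 13 with normexp, 157 with the filter on either genotype, 141 without a filter and 162 to 344 with 1 array left out (196, 162, 344 and 201 in the order above). The methods' t-test list (13) held 5, 40 and 97 under the first 3 of these. *Nanos2* differed by 11.46 on the floored scale, 7.80 with normexp, 9.46 with a floor of 20 (adjusted p = 0.348), and 11.46 without a filter (0.464) and with the replicate block (0.0736). Nothing in the labels pairs the replicate numbers. Same-numbered arrays of the 2 genotypes deviated together at a correlation of 0.281 over only 2 pairs, and the block gave 0 limma calls and 73 probes at unadjusted limits. Probes without overlap, 5120 higher and 2717 lower, became 7237 to 12995 and 4979 to 9256 with 1 array left out, where fewer arrays can overlap. Without Nanos2-/- replicate 1 the excess turned, with 7237 higher and 9256 lower. The sign turned for *Dppa5a* (-0.10 with quantile normalization, -0.058 with normexp, -0.035 to 0.10 with 1 array left out), and with 1 array left out the differences ran from -0.053 to 0.27 for *Dazl*, -0.062 to 0.25 for *Sox2*, -0.31 to 0.29 for *Dppa3*, -0.16 to 0.064 for *Sycp1* and -0.090 to 0.69 for *Taf7l*. The cause was not tested. Of 611 results for named genes under the alternatives, 591 kept their direction and side of the threshold, 10 passed it and 10 turned. *Kctd14* gave 7 of those that passed, and the others were *Khdc1c* and *Spata20* without Nanos2-/-_Tg+ replicate 1 (adjusted p = 0.0440 and 0.0493) and *Spag16* without Nanos2-/-_Tg+ replicate 2 (0.0121). The floor and the 2 arrays per genotype limit what can be said of dim probes.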
